A study of Sus scrofa with 30 samples.

Results

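Early involution was compared with early lactation in the pig mammary gland. The early lactation group (EL) holds samples taken on postpartum day 2, and the early involution group (W2) holds samples taken on day 2 after weaning. Both groups came from multiparous half-sibling crossbred Danish Landrace and Yorkshire sows, and the tissue was parenchyma, which contains secretory epithelium together with myoepithelium, fat, vessels and immune cells. No genetic or drug treatment was applied, each stage was taken from different sows, and bulk RNA was sequenced. The comparison uses 6 of the 30 samples of the series (15 of the 30 were counted over all 5 stages), namely EL_3, EL_4 and EL_6 against W2_2, W2_3 and W2_6, chosen by their titles. The other 3 samples of each of these stages were left out because their values lay close to the mean of the counted ones: the mean of the left-out samples differed from it by a median of 0.707% per transcript in EL and 0.692% in W2. Any pair of left-out samples differed by a median of at most 1.83% per transcript, while pairs of counted samples differed by 21.2% to 33.3%. A further label field contradicts the titles, since it calls the EL samples mid-gestation and the samples titled mid-gestation (MG) early lactation. The titles were followed. The beta-casein gene CSN2 stood at 33157 to 58718 units in the samples titled EL and at 4862 to 16977 units in those titled MG, with no overlap. The same held for CSN1S1, CSN1S2, CSN3 and LALBA, while WAP and PAEP overlapped between EL and MG (WAP at 44.5 units in EL_3 and 51.8 units in MG_6, PAEP at 133914 units in EL_4 and 133990 units in MG_1).

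During lactation the alveolar epithelium makes milk proteins, lactose and fat under the influence of prolactin, and suckling by the piglets keeps that hormone and the milk flow going. When suckling stops, milk accumulates, secretion is switched off, part of the secretory epithelium dies, and matrix and stroma are rebuilt around what remains. The early phase is known for the loss of milk protein transcripts, for signalling through the LIF and STAT3 pathway, and for lysosomal and inflammatory genes.

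Levels are given as deposited, in units that are corrected for transcript length and add up to about the same total in each sample (TPM), so that they may be compared between genes. A gene's level is the sum of its reference transcripts, and 14937 genes were obtained in this way. The table also holds 29047 assembled transcripts, which carry no gene name and are not in these sums. Fold changes are on the scale of log2(level + 0.5), W2 minus EL, and adjusted p-values come from limma with Benjamini-Hochberg adjustment over all genes or all transcripts. Read counts per transcript are not among the values used, and no counting interval is given. With 3 samples against 3, no exact permutation test of a single value can go below 0.1. The labels used here give the stage, day and number of a sample, and that the samples are separate sows is taken from the study's methods. In bulk tissue fewer cells of a type and less RNA per cell cannot be told apart.

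Milk protein genes fell between EL and W2, while genes of several other kinds rose. At an adjusted p under 0.05, 117 genes were higher in W2 (0.783% of all genes tested) and 36 were lower (0.241%). Of these, 84 and 34 changed at least 2-fold. EL and W2 samples did not overlap for any of the 153. Across all genes, however, 42.4% had W2 samples entirely above EL samples and 2.31% entirely below, and the median gene was higher in W2 by 0.45 on the log2 scale. The share of a few very abundant transcripts also differed. The 20 highest transcripts took 33.4%, 41.7% and 38.0% of all units in the EL samples and 28.9%, 25.6% and 26.1% in the W2 samples. Median ratio scaling sets samples to a common level by 2698 transcripts, those with at least 10 units in all 15 counted samples of the series. After this scaling the median shift was 0.12, and 21 genes were higher (0.141%) and 27 lower (0.181%). Without regard to the test, 18.2% of all genes then had W2 samples entirely above EL samples and 7.43% entirely below. Of the 153 genes, 40 were called under both scalings, 21 higher and 19 lower. For genes that lost their call after scaling, that adjusted p is given for the main examples below.

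The calls also depend on single samples. No gene at all of the 153 was called after W2_3 was left out, and 1 other was. Without EL_4, 5 genes were called. Without EL_6, W2_2 or W2_6, 24, 21 or 12 genes passed, and 347 passed without EL_3. All 153 kept their direction, and an unadjusted p under 0.05, in each of these fits. Of all genes, 4434 had an unadjusted p under 0.05, with 28.1% of all genes higher in W2 and 1.63% lower, and the adjusted p of the called genes ran from 0.0136 to 0.0499. Leaving PL_2, a sample of peak lactation (PL, postpartum day 10), out of the shared fit raised the count to 3695.

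Of the 7 milk protein genes, 5 fell and none rose, and for all 7 every W2 sample lay below every EL sample. Their median log2 fold change was -4.19, against 0.45 for all genes, and it was -4.58 after scaling. The alpha-S2-casein gene CSN1S2 (chromosome 8, 66971081 to 67012343, Sscrofa11.1) showed the largest fold change of any called gene. It stood at 1442, 29843 and 13852 units in EL_3, EL_4 and EL_6 and at 39.3, 9.95 and 17.2 units in W2_2, W2_3 and W2_6. EL_3 was far below EL_4 and EL_6, yet still above every W2 sample. The log2 fold change was -8.76 (SE 1.49, adjusted p = 0.0309). CSN2 (chromosome 8, 66914231 to 66922636) codes for beta-casein and was the most abundant casein gene by its reference transcripts in EL. It went from 33157, 48522 and 58718 units to 3799, 1405 and 2901 units, a log2 fold change of -4.19 (SE 0.62, adjusted p = 0.0213).

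The kappa-casein gene CSN3 (chromosome 8, 67099131 to 67109112), whose product stabilises the micelle, stood at 9885, 26420 and 18886 units in EL and at 1642, 1640 and 2515 units in W2. Its log2 fold change was -3.17 (SE 0.44, adjusted p = 0.0171). The alpha-S1-casein gene CSN1S1 (chromosome 8, 66888231 to 66908306) had the smallest fall of the caseins. It stood at 19178, 12867 and 10237 units in EL and at 2626, 2722 and 2548 units in W2, a log2 fold change of -2.37 (SE 0.32, adjusted p = 0.0171). In contrast to the other caseins, CSN1S1 was highest in EL_3. The W2 samples were close to one another, and CSN1S1, CSN2 and CSN3 were left at comparable levels in them, while CSN1S2 was almost lost.

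WAP (chromosome 18, 50359599 to 50361906), the whey acidic protein gene, stood at 44.5, 632 and 621 units in EL and 3.99, 1.14 and 3.46 units in W2, with a log2 fold change of -6.40 (SE 1.32, adjusted p = 0.0447). After scaling the adjusted p was 0.0636. LALBA (chromosome 5, 79214487 to 79216791) codes for alpha-lactalbumin, the regulatory subunit of lactose synthase. It was measured at 151, 2501 and 1988 units in EL and 29.5, 2.31 and 13.7 units in W2, and its log2 fold change of -6.42 (SE 1.52) did not pass, with an adjusted p of 0.0587. As with CSN1S2 and WAP, EL_3 was the lowest EL sample. PAEP, the beta-lactoglobulin gene, stood apart. It was at 135972, 133914 and 148574 units in EL and at 130309, 98685 and 104359 units in W2, with a log2 fold change of -0.34 (SE 0.17, adjusted p = 0.195). It was the most abundant reference gene of both groups.

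Summed, the 7 genes took 20.0%, 25.5% and 25.3% of all units in the EL samples and 13.9%, 10.5% and 11.3% in the W2 samples. The means were 23.6% ± 3.12 and 11.9% ± 1.78 (SD, n = 3), a difference of -11.7 percentage points (p = 0.1 by a two-sided exact permutation test). PAEP alone made up 13.6%, 13.4% and 14.9% in EL and 13.1%, 9.89% and 10.5% in W2. Without PAEP the share was 9.65% ± 2.93 in EL and 0.732% ± 0.133 in W2. The milk protein share remaining in W2 was therefore nearly all PAEP.

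**Figure D1:**
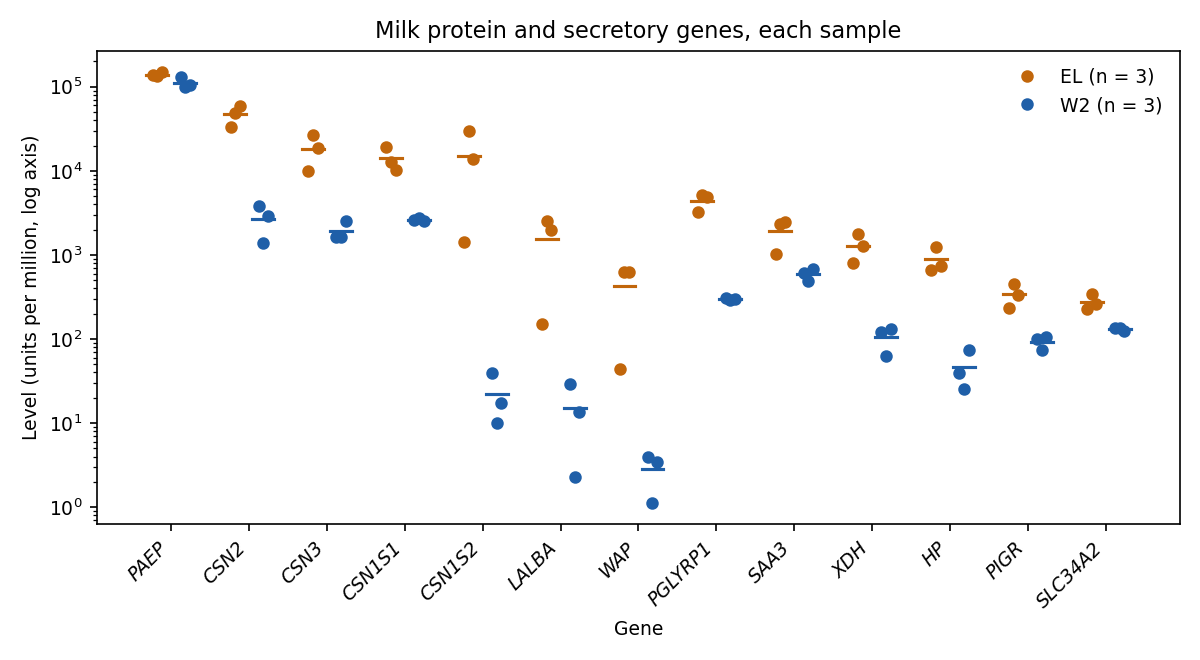
Level of milk protein and secretory genes in each EL and W2 sample (points) with the group mean (line), in units on a log axis. Every gene shown has its W2 samples below its EL samples, by little for PAEP and by far for CSN1S2, which fell from between 1442 and 29843 units to between 9.95 and 39.3.

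Among 14 genes of milk defence and the acute phase, 4 fell and 1 rose, and their median log2 fold change was -1.04. PGLYRP1 (chromosome 6, 52318544 to 52322504), which codes for a peptidoglycan recognition protein that binds bacterial cell walls, stood at 3246, 5108 and 4911 units in EL. In W2 it was at 304, 290 and 295 units, and the 3 values were almost equal. The log2 fold change was -3.87 (SE 0.50, adjusted p = 0.0171), and this fall was called in 17 of the 20 alternative fits. The miRNA gene MIR769 (chromosome 6, 52318329 to 52318408) lies 135 bases from PGLYRP1. It went from 29.4, 51.3 and 33.2 units to 0.320, 0.292 and 0.416 units (log2 fold change -5.47, SE 1.03, adjusted p = 0.0337, and 0.0593 after scaling). A hairpin of this size next to an abundant gene may share its reads, so its value is uncertain.

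HP (chromosome 6, 14980382 to 14985245) codes for haptoglobin, the haemoglobin-binding acute phase protein. It stood at 658, 1252 and 743 units in EL and at 39.0, 25.6 and 75.1 units in W2, a log2 fold change of -4.31 (SE 0.74, adjusted p = 0.0313). PIGR, the receptor that carries IgA across the epithelium into milk, went from 233, 453 and 337 units to 99.4, 73.1 and 106 units. Its log2 fold change of -1.84 (SE 0.39, adjusted p = 0.0484) was not called after scaling (adjusted p = 0.0770). SAA3, an acute phase protein made by the gland, went from 1036, 2348 and 2444 units to 613, 483 and 678 units (log2 fold change -1.63, SE 0.35, adjusted p = 0.0499, and 0.0508 after scaling). LBP, which presents lipopolysaccharide, had 17.2, 90.6 and 40.2 units in EL and 2.94, 3.12 and 8.37 in W2, without passing the test (adjusted p = 0.0664).

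LYZ (chromosome 5, 33612593 to 33618953), the lysozyme gene, was the one member that rose. It went from 8.92, 8.21 and 11.2 units to 64.8, 41.3 and 29.4 units, a log2 fold change of 2.14 (SE 0.42, adjusted p = 0.0393, and 0.0593 after scaling). Lysozyme is made by macrophages as well as by epithelium. None of 10 macrophage markers passed, 6 of them had W2 samples entirely above EL samples (42.4% of all genes did), and their summed level was 245 to 408 units in EL and 439 to 535 units in W2. The marker CSF1R, the receptor for a macrophage growth factor, was at 2.90, 2.29 and 6.55 units in EL and at 19.4, 17.2 and 17.5 units in W2 (adjusted p = 0.0530). The part of these cells in the LYZ values was not tested. Lactoferrin (LTF) had 846.6, 646 and 601 units in EL and 527, 685 and 548 units in W2, which overlap.

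XDH (chromosome 3, 107987060 to 108052043) was the called gene among 7 of the milk fat globule membrane. It codes for xanthine dehydrogenase, which with butyrophilin attaches the membrane to the fat droplet. XDH stood at 809.6, 1765 and 1294 units in EL and at 122, 62.7 and 131 units in W2, a log2 fold change of -3.61 (SE 0.51, adjusted p = 0.0179). Both of its reference transcripts fell. MUC15 and MFGE8 also had every W2 sample below every EL sample but did not pass (adjusted p = 0.146 and 0.311). The fat droplet coat gene PLIN2 was at 1006 to 1321 units in EL and 1176 to 1457 units in W2. The butyrophilin gene BTN1A1 was listed at 0 to 4.82 units in the 6 samples and the fatty acid synthase gene FASN at 0.113 to 4.78 units. Assembled transcripts, which could belong to such genes, are not in these sums.

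None of 20 genes of fatty acid and triglyceride synthesis passed. In 6 of them every W2 sample was below every EL sample, among them FABP3, ACSL3 and CD36, and in 4 every W2 sample was above, against 2.31% and 42.4% of all genes. FABP3, the fatty acid binding protein of the gland, had 5757, 6278 and 6986 units in EL and 4859, 3667 and 4579.7 units in W2 (adjusted p = 0.216). Of 11 genes for lactose synthesis and glucose supply, HK1 (hexokinase 1) was the called one, at 19.9, 15.8 and 18.0 units in EL and 33.1, 39.95 and 36.9 units in W2 (log2 fold change 1.01, SE 0.22, adjusted p = 0.0499, and 0.0586 after scaling). B4GALT1, the catalytic subunit of lactose synthase, lay lower in every W2 sample, at 213 to 260 units against 317 to 475, with an adjusted p of 0.0664.

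Among the listed carriers there were 2 calls, both lower. Outside the lists, the transporter genes SLC4A5 and NIPA2 were called higher in W2 (adjusted p = 0.0475 and 0.0489 by limma). SLC4A5 was near the floor, at 0.0659 to 0.107 units in EL and 0.426 to 0.671 units in W2. It was called in 5 of the 20 alternative fits. NIPA2 was at 11.2 to 13.7 units in EL and 19.2 to 30.3 units in W2. After scaling the adjusted p was 0.0890 for SLC4A5 and 0.157 for NIPA2. SLC34A2 (chromosome 8, 19481127 to 19507903), a phosphate transporter, stood at 226, 345 and 259 units in EL and at 136, 136 and 124 units in W2 (log2 fold change -1.04, SE 0.16, adjusted p = 0.0228). It was the one member called among 9 genes for calcium, phosphate and zinc. SLC7A8, a transporter of neutral amino acids, had 31.1, 39.6 and 36.4 units in EL and 15.9, 13.5 and 15.3 units in W2 (log2 fold change -1.23, SE 0.24, adjusted p = 0.0433, and 0.0589 after scaling), the one call among 12 amino acid transporters. SLC6A14, a broad amino acid transporter, had 29.7, 282 and 152 units in EL and 16.1, 8.08 and 14.6 units in W2, and with EL_3 far below the other EL samples it did not pass (adjusted p = 0.0615). SLC1A5, a glutamine carrier, lay higher in every W2 sample (adjusted p = 0.0612).

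PDIA4 (chromosome 9, 109260850 to 109280256), a disulphide isomerase that folds secreted proteins in the endoplasmic reticulum, was the call among 23 genes of folding and secretion. It had 169, 181 and 198 units in EL and 96.8, 113 and 111 units in W2, a log2 fold change of -0.77 (SE 0.11, adjusted p = 0.0213). The list's median was -0.11 as deposited and -0.49 after scaling, in both cases below that of all genes. Chosen after their values were seen, SSR3 and KDELR3 act in the same compartment and also fell. SSR3, a subunit of the translocon-associated complex, was at 180 to 204 units in EL and 85.4 to 148 units in W2. KDELR3, a receptor that returns resident proteins, was at 23.2 to 43.0 units in EL and 13.5 to 17.5 units in W2. After scaling the adjusted p was 0.0541 for SSR3 and 0.0571 for KDELR3.

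Other large falls were outside the milk lists. CYP1A1 (chromosome 7, 58802887 to 58809155), the cytochrome P450 induced through the aryl hydrocarbon receptor, stood at 36.6, 10.4 and 4.33 units in EL. In W2 it was at 0.431, 0.201 and 0.222 units (log2 fold change -4.004, SE 0.57, adjusted p = 0.0179). The EL samples ranged widely but none came near W2. TTC3 (chromosome 13), a ubiquitin ligase gene, was at 17.5, 7.21 and 7.89 units in EL. It was listed at 0 in 2 W2 samples and stood at 0.00582 in the third (adjusted p = 0.0309). Its level rests on 1 reference transcript, and an exact 0 may be a failed estimate. The uncharacterised genes LOC110260741 and LOC100522145 completed the 12 largest falls, with 3.58 to 15.9 units in EL and at most 0.588 units in W2. NUPR1, a small stress-induced nuclear protein and again chosen after its values were seen, fell from 155, 307 and 221 units to 35.3, 29.4 and 36.1 units (log2 fold change -2.69, SE 0.44, adjusted p = 0.0309).

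KRT6A fell together with LOC106507259, LOC100737483 and LOC110260665, which lie beside it on chromosome 5, between 17781048 and 17851113. KRT6A, a keratin of activated epithelium, had 4.93, 10.2 and 6.86 units in EL and 0.708, 1.11 and 2.01 units in W2. The 3 neighbours had 2.70 to 8.16 units in EL and 0.203 to 1.02 units in W2. Near-identical copies in such a cluster may share reads, so these are not counted as separate observations.

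The largest rises were APCDD1L and AXIN2. APCDD1L (chromosome 17, 58657597 to 58711424) is related to a membrane inhibitor of Wnt signalling. It was listed at 0 in EL_3 and EL_6 and at 0.0989 units in EL_4, and it reached 15.7, 16.8 and 5.51 units in W2 (log2 fold change 4.49, SE 0.59, adjusted p = 0.0171). AXIN2 (chromosome 12, 12311293 to 12343207), a scaffold of the beta-catenin destruction complex and a common target gene of Wnt signalling, was at 0.283, 0.235 and 1.12 units in EL. In W2 it was at 10.5, 10.5 and 9.58 units, with a log2 fold change of 3.46 (SE 0.39, adjusted p = 0.0136), the lowest adjusted p of any gene. Both rises remained called after scaling, at 4.20 and 3.13. The gene CEP112, which was listed at 0 in all 3 EL samples and at 2.04, 2.96 and 3.17 units in W2, overlaps AXIN2 by 2925 bases. The libraries are not stated to keep strand, and reads of the overlap cannot be assigned to one of these genes.

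Chosen after their values were seen, BAMBI and NDP also bear on Wnt and TGF-beta signalling, the first as a decoy receptor and the second as a ligand of a Wnt receptor. BAMBI had 0.915, 0.553 and 0.7995 units in EL and 4.53, 3.64 and 4.59 units in W2 (adjusted p = 0.0337, and 0.0813 after scaling). NDP had 0.244, 0.0779 and 0 units in EL and 1.84, 1.54 and 1.10 units in W2 (adjusted p = 0.0309).

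TFAP2C (chromosome 17, 57164400 to 57174923) codes for the transcription factor AP-2 gamma, which is expressed in mammary luminal and progenitor cells. It was the most abundant of the 12 largest rises, with 46.4, 15.6 and 21.6 units in EL and 143, 161 and 132 units in W2. The log2 fold change was 2.51 (SE 0.41, adjusted p = 0.0309), and 2.12 after scaling with an adjusted p of 0.0287. Its relative TFAP2A, outside the naming rule, was at 8.35, 14.3 and 7.34 units in EL and at 28.6, 27.8 and 28.0 units in W2 (log2 fold change 1.503, SE 0.32, adjusted p = 0.0499, and 0.105 after scaling).

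None of 11 luminal markers was called, and 6 of 11 had W2 samples entirely above EL samples, a pattern seen in 42.4% of all genes. KRT8 was at 94.6 to 141 units in EL and 265 to 350 units in W2 (adjusted p = 0.0855), and KRT18 at 26.6 to 37.6 and 80.8 to 112 units (adjusted p = 0.0617). EPCAM, an adhesion molecule of epithelial cells, was at 555 to 754 units in EL and 523 to 717 units in W2. The luminal list summed to 1043 to 1318 units in EL and 1396 to 2187 units in W2, and its part in the TFAP2C values was not tested. KRT7 was listed at 0 in all EL samples and in W2_2, and at 80.0 and 200 units in the other two W2 samples.

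Other genes among the 12 largest rises were also low in EL. DNAJC18, a co-chaperone of the endoplasmic reticulum, was at 0, 2.34 and 1.33 units in EL and at 13.2, 13.7 and 8.43 units in W2 (adjusted p = 0.0364). RHBDF1, an inactive rhomboid that assists release of growth factors of the EGF family, was at 3.10, 5.77 and 2.51 units in EL and at 13.3, 27.5 and 22.7 units in W2 (adjusted p = 0.0484). ENTPD2, which breaks down extracellular ATP, rose from between 0.312 and 2.05 units to between 6.81 and 8.77 units (adjusted p = 0.0330). HEPACAM, an adhesion molecule, rose from between 0.128 and 1.21 units to between 3.71 and 7.85 units (adjusted p = 0.0309). PRR3, a nucleic acid binding protein, and ANAPC1, a subunit of the anaphase-promoting complex, had adjusted p-values of 0.0493 and 0.0420. None of DNAJC18, RHBDF1, ENTPD2, HEPACAM, PRR3 and ANAPC1 remained called after scaling, where their adjusted p lay between 0.0547 and 0.0971.

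Rises that remained called after scaling, again chosen after their values were seen, included the metabolic enzymes AKR1B1 and MAOB and the adaptor PDLIM1. AKR1B1, aldose reductase, had 50.1, 23.7 and 35.6 units in EL and 117, 130 and 143 units in W2 (log2 fold change 1.88, SE 0.32, adjusted p = 0.0309). MAOB, a mitochondrial monoamine oxidase, had 9.71, 8.56 and 7.76 units in EL and 28.6, 31.3 and 46.5 units in W2 (log2 fold change 1.94, SE 0.33, adjusted p = 0.0309). PDLIM1, which binds actin fibres, had 14.8, 11.0 and 13.3 units in EL and 31.3, 32.8 and 34.7 units in W2 (log2 fold change 1.31, SE 0.18, adjusted p = 0.0171).

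**Figure D2:**
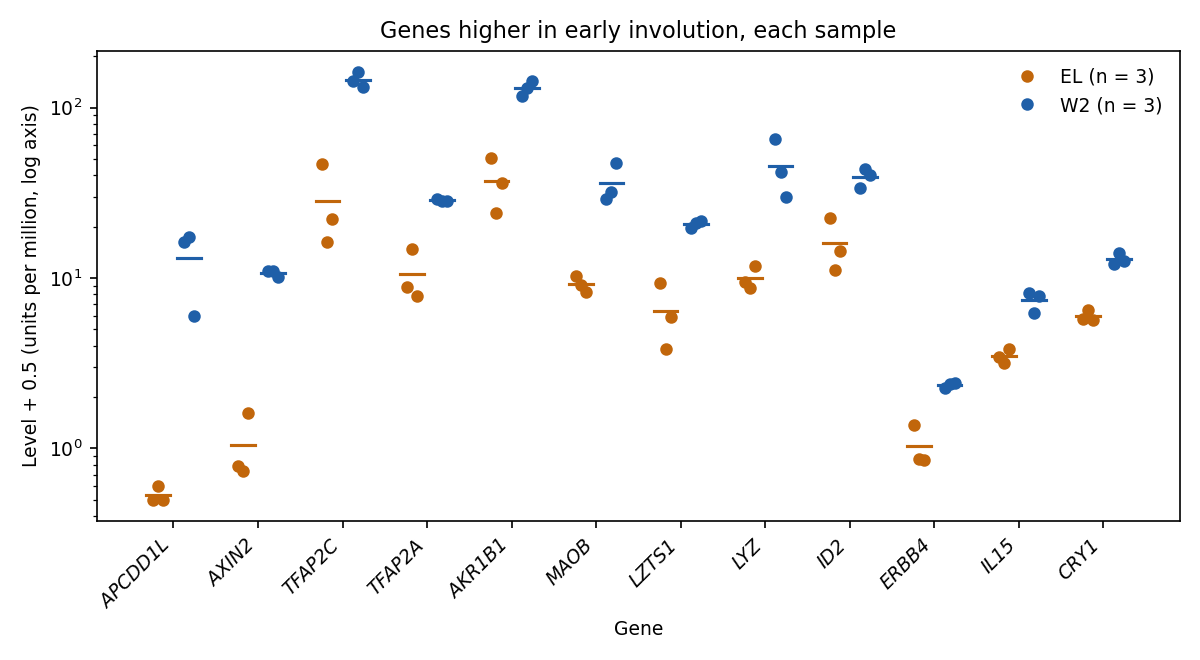
Level plus 0.5 of 12 genes higher in W2, in each EL and W2 sample (points) with the group mean (line), in units on a log axis. The groups do not overlap for any gene shown, and APCDD1L was listed at 0 in 2 of 3 EL samples.

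Signalling genes known from involution in other species did not pass. None of 14 measured members was called, and their median log2 fold change was 0.25, below the 0.45 of all genes. STAT3, the central factor of that pathway, had 8.47, 5.24 and 10.8 units in EL and 7.25, 4.62 and 10.1 units in W2. The ligand LIF stayed between 0.0466 and 0.170 units in all 6 samples. The receptor genes IL6ST and OSMR overlapped between groups. IL6ST was at 30.5 and 36.8 units in W2_2 and W2_3 but at 1.48 units in W2_6. The LIF receptor gene LIFR was not among the measured genes, nor were IL6, OSM and PIK3R3. CEBPD, a factor induced by STAT3, was at 19.3 to 24.7 units in EL and 6.89 to 27.3 units in W2.

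Higher values in every W2 sample were seen for 5 of the 14 genes, LIF, TNFRSF1A, IGFBP5, SOCS3 and CEBPB, a smaller share than the 42.4% of all genes with that pattern. CEBPB, a factor of mammary epithelial differentiation, was at 82.9, 59.1 and 106 units in EL and at 139, 157 and 180 units in W2 (log2 fold change 0.97, SE 0.38, adjusted p = 0.130). SOCS3, the feedback inhibitor of STAT3, was at 3.06, 1.90 and 1.43 units in EL and 3.08, 4.76 and 5.37 units in W2 (adjusted p = 0.175). IGFBP5, which binds IGF-1, was at 15.2 to 25.1 units in EL and 28.8 to 45.6 units in W2 (adjusted p = 0.403). The remaining members, FOS, JUNB, IL6R, PIK3R1 and TGFB3, overlapped between the groups, with log2 fold changes of 0.14 to 0.93 and adjusted p-values of 0.252 to 0.777. TNFRSF1A, a TNF receptor, was at 37.1 to 38.4 units in EL and 42.2 to 51.9 units in W2.

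None of 8 measured prolactin and STAT5 genes passed. The prolactin receptor gene PRLR was not among the measured genes. STAT5A, the factor that relays prolactin to the milk genes, was at 9.79, 17.9 and 76.8 units in EL and 8.56, 13.4 and 13.8 units in W2, and the high EL_6 value stood alone. ELF5, an alveolar factor, was at 136, 196 and 408 units in EL and 150, 217 and 84.7 units in W2. STAT5B and SOCS2 also overlapped.

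None of 19 cell death genes and none of 21 lysosome and autophagy genes passed. In 9 and 13 of them every W2 sample was above every EL sample, against 42.4% of all genes, and their medians of 0.46 and 0.50 were near the 0.45 of all genes. BCL2, which restrains cell death, came closest, at 2.25, 1.59 and 1.55 units in EL and 5.69, 4.35 and 9.91 units in W2 (log2 fold change 1.58, SE 0.37, adjusted p = 0.0584). Of the lysosomal genes, 2 had W2 samples entirely below EL samples. These were CTSZ, a cathepsin at 332 to 425 units in EL and 164 to 289 units in W2 (adjusted p = 0.0673), and LAMP2, at 2.61 to 4.80 and 0.890 to 1.61 units (adjusted p = 0.137).

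Matrix genes gave 2 rises among 20 members and had the highest median of the lists, 0.92 as deposited and 0.54 after scaling, against 0.45 and 0.12 for all genes. COL4A1, a chain of basement membrane collagen, was at 243, 248 and 241 units in EL and 422, 361 and 397 units in W2 (log2 fold change 0.69, SE 0.12, adjusted p = 0.0324). COL18A1, another basement membrane collagen, was at 53.7, 47.9 and 48.6 units in EL and 96.9, 91.5 and 107 units in W2 (log2 fold change 0.97, SE 0.16, adjusted p = 0.0309). After scaling the log2 fold changes of COL4A1 and COL18A1 were 0.30 and 0.58, with adjusted p-values of 0.332 and 0.164. COL4A2, the partner chain of COL4A1, was at 121 to 187 units in EL and 272 to 344 units in W2 (adjusted p = 0.0565). The fibrillar collagen genes COL1A1 and COL3A1 lay at 86.5 to 136 and 440 to 601 units in EL and at 191 to 390 and 614 to 1402 units in W2, without passing.

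None of 15 matrix proteases and inhibitors passed. PLAUR, the urokinase receptor, came closest, at 0.292 to 2.00 units in EL and 3.59 to 4.72 units in W2 (adjusted p = 0.0612), and MMP14, a membrane-bound collagenase, was at 1.26 to 1.64 units in EL and 4.10 to 4.60 units in W2 (adjusted p = 0.0781). MMP2, MMP9 and TIMP1 overlapped between the groups. Chosen after its values were seen, TIMP4, an inhibitor of these enzymes that is not in the list, fell from 9.24, 8.39 and 11.0 units to 4.89, 4.12 and 2.98 units (log2 fold change -1.17, SE 0.24, adjusted p = 0.0433).

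Immune genes gave single calls. SLA-DQA1, the alpha chain of a class II antigen-presenting molecule, was at 134, 130 and 155 units in EL and at 302, 240 and 254 units in W2 (log2 fold change 0.92, SE 0.18, adjusted p = 0.0364). It was the call among 18 antigen presentation genes, of which 12 had W2 samples entirely above EL samples, CD74 and SLA-DRA among them, against 42.4% of all genes. The list's median was 0.62 as deposited and 0.27 after scaling, against 0.45 and 0.12 for all genes. IL15, a cytokine that sustains T and natural killer cells, was at 2.94, 2.68 and 3.32 units in EL and 7.61, 5.75 and 7.37 units in W2 (log2 fold change 1.09, SE 0.20, adjusted p = 0.0330), the call among 16 chemokines and cytokines. After scaling the adjusted p was 0.0820 for SLA-DQA1 and 0.136 for IL15. The reference transcripts of the defining neutrophil genes S100A8 and S100A9 were at 0 in all 6 samples and at most 0.378 units, respectively. None of the 5 measured neutrophil markers was called, and 2 had W2 samples entirely above EL samples. Their sum was low in both groups, at 1.67 to 3.15 units in EL and 3.46 to 6.31 units in W2. Their median log2 fold change was 0.55 as deposited and 0.41 after scaling. CXCR1, CXCR2, MMP8 and MMP25 were not among the measured genes. The lymphocyte and plasma cell list summed to 871 to 1393 units in EL and 605 to 876 units in W2. The median log2 fold change of its 17 genes was 0.30, against 0.45 for all genes, so the sum and the median differed in direction. Every W2 sample was above every EL sample in 6 of the 17 and below in 1, against 42.4% and 2.31% of all genes.

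CRY1, a repressor of the circadian clock, was the call among 14 clock genes. It was at 5.25, 6.00 and 5.19 units in EL and 11.6, 13.6 and 12.1 units in W2 (log2 fold change 1.11, SE 0.22, adjusted p = 0.0433, and 0.1798 after scaling). CRY2 was at 2.25 to 4.49 units in EL and 10.4 to 11.4 units in W2 (adjusted p = 0.0635). The hour of sampling is not in the labels. ERBB4, a receptor of neuregulins with a known role in alveolar differentiation, was the call among 22 growth factor genes, at 0.876, 0.360 and 0.351 units in EL and 1.76, 1.90 and 1.92 units in W2 (log2 fold change 1.23, SE 0.23, adjusted p = 0.0337, and 0.0541 after scaling).

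**Figure D3:**
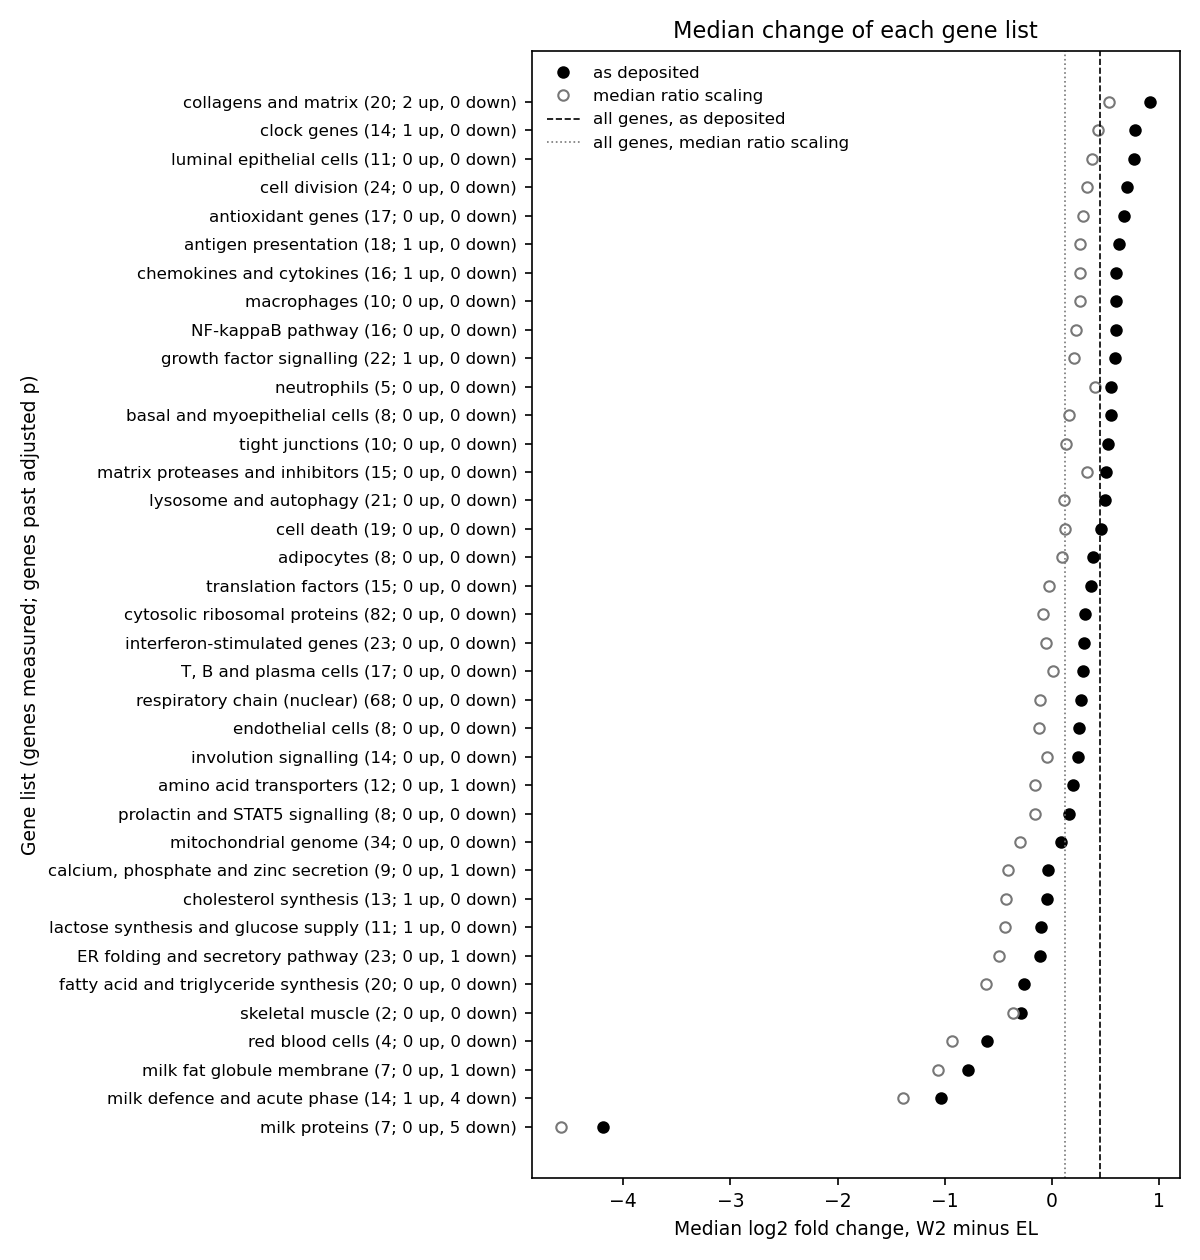
Median log2 fold change, W2 minus EL, of each gene list as deposited (filled) and after median ratio scaling (open), with the medians of all genes as vertical lines at 0.45 and 0.12. Labels give the genes measured and those past the adjusted p; milk proteins lie far to the left and collagens and matrix furthest to the right.

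No gene passed among 82 cytosolic ribosomal proteins, 68 nuclear genes of the respiratory chain, 34 genes of the mitochondrial genome, 24 cell division genes, 23 interferon-stimulated genes, 17 antioxidant genes, 16 genes of the NF-kappaB pathway, 15 translation factors and 10 tight junction genes. The ribosomal protein genes had a median of 0.31 as deposited and -0.08 after scaling, so that their direction depends on the scaling, as it does for the respiratory chain (0.27 and -0.11) and the mitochondrial genome (0.09 and -0.30). The share of units on the mitochondrial genome was 9.34%, 9.00% and 9.13% in EL and 9.96%, 9.90% and 10.0% in W2, which do not overlap. The means were 9.16% ± 0.175 and 9.95% ± 0.0532 (SD, n = 3; exact permutation test, two-sided, p = 0.1). Cell division genes had a median of 0.70 as deposited and 0.33 after scaling. Of these 24 genes, 12 had an unadjusted p under 0.05 with higher values in W2, among them CCND1 and CDC20, against 28.1% of all genes. MKI67 was at 1.07 to 4.04 units in EL and 0.363 to 1.12 units in W2 (adjusted p = 0.166).

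The markers of other cell types in the tissue gave no call. Myoepithelial markers summed to 1227 to 1498 units in EL and 2031 to 2262 units in W2, endothelial markers to 122 to 161 and 166 to 183 units, and adipocyte markers to 708 to 748 and 567 to 680 units. The median log2 fold change of the 8 myoepithelial and 8 endothelial markers was 0.55 and 0.25 as deposited. After scaling it was 0.16 and -0.12. The medians of all genes were 0.45 as deposited and 0.12 after scaling. Every W2 sample was above every EL sample in 4 myoepithelial and 3 endothelial markers, against 42.4% of all genes. The defining adipocyte marker FABP4 had 655 to 709 units in EL and 497 to 613 units in W2. It made up most of the adipocyte sum. The median log2 fold change of the 8 adipocyte markers was 0.38, against 0.45 for all genes. Every W2 sample was above every EL sample in 3 of them and below in 1. Of all genes, 42.4% and 2.31% had these patterns. Red blood cell genes summed to 88.1 to 287 and 38.5 to 183 units, and the 2 measured skeletal muscle genes stayed under 1 unit. The part of cell composition in the calls was not tested.

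At the level of single transcripts, 39 of 61773 differed between EL and W2 with an adjusted p under 0.05 and a log2 fold change of 2 or more in either direction (0.0631%). Of these differentially expressed transcripts (DETs), 19 were higher (0.0308%) and 20 lower (0.0324%) in W2, and 7073 transcripts had an unadjusted p under 0.05. Reference transcripts made up 23 of the 39 and belonged to 21 genes, of which 9 were also called as genes. The rest were assembled. Reference transcripts of CSN1S1, CSN2, CSN3, PGLYRP1, CYP1A1 and XDH (2 transcripts) were among the 12 that fell. Of the DETs that rose, 13 were listed at 0 in all 3 EL samples.

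LZTS1 (chromosome 14, 4344496 to 4404208), which codes for a leucine zipper protein that regulates cell division, had 1 transcript in each direction. XM_021072721.1 was at 8.87, 3.34 and 5.34 units in EL and at 0, 0.0415 and 0 units in W2 (adjusted p = 0.00403). XM_001925505.4 was listed at 0 in EL_3 and EL_4 and at 0.0657 units in EL_6, and it was at 19.1, 20.5 and 21.1 units in W2 (adjusted p = 4.1e-06). The samples of one group thus carried nearly all of the LZTS1 level on one transcript and those of the other group on the other. The second transcript was called in all 20 alternative fits. Summed over both, LZTS1 rose with a log2 fold change of 1.80 (SE 0.32, adjusted p = 0.0324).

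**Figure D4:**
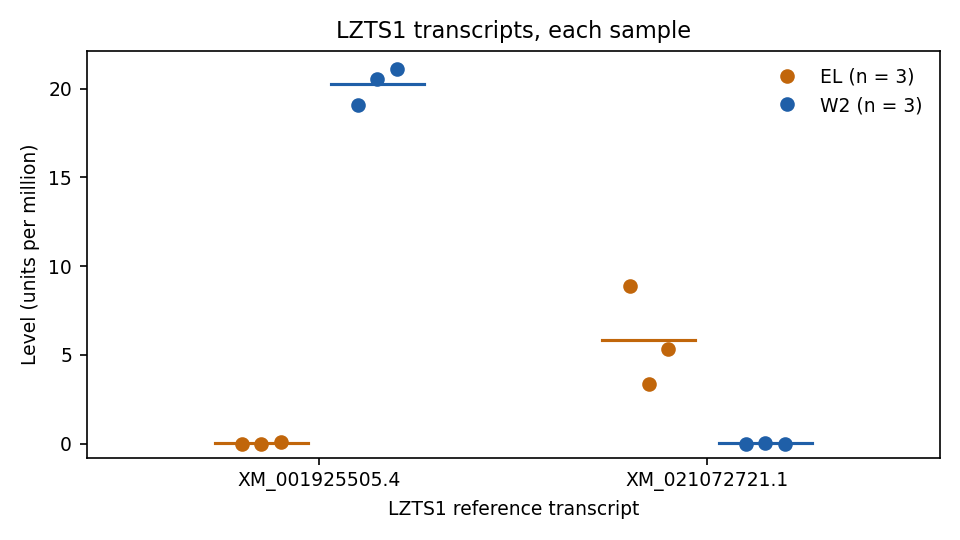
Level of the 2 LZTS1 reference transcripts in each EL and W2 sample (points) with the group mean (line), in units. XM_001925505.4 lies at 19.1 to 21.1 units in W2 and near 0 in EL, and XM_021072721.1 at 3.34 to 8.87 units in EL and near 0 in W2.

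Several other DETs belonged to genes whose summed level did not pass. The SP1 transcript XM_005652569.3, of a general transcription factor, was at 0.0845 to 0.174 units in EL and at 6.61, 4.07 and 3.78 units in W2 (adjusted p = 0.00364), while the summed SP1 level had a log2 fold change of 0.34 (adjusted p = 0.317). GMEB1 XM_021095687.1 was listed at 0 in every EL sample and was at 4.74, 3.87 and 3.23 units in W2 (adjusted p = 0.002). The GMEB1 sum went from a mean of 4.63 units in EL to 8.61 units in W2 (log2 fold change 0.82, adjusted p = 0.0612). For PPIG, a cyclophilin tied to splicing, XM_005671915.3 was at 0, 0.0196 and 0 units in EL and 5.84, 8.76 and 3.80 units in W2 (adjusted p = 0.00282). The PPIG sum had a log2 fold change of 0.52 (adjusted p = 0.0906). SSB XM_005671925.3, of the La protein that binds nascent RNA, was at 0.0225 to 0.173 units in EL and 12.5 to 59.4 units in W2 (adjusted p = 0.0409), and its gene sum did not pass.

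Transcripts of ABI2, TCF3, PRRG3 and RALA were listed at 0 in all EL samples and stood at 1.38 to 13.6 units in W2, and that of YTHDF3 was at up to 0.158 units in EL and at 2.53 to 14.9 units in W2. RALA was also called as a gene (log2 fold change 0.83, adjusted p = 0.0447). In the other direction, transcripts of BBIP1, ANPEP, JADE3 and LOC110256043 were at 0.986 to 11.6 units in EL and at most 0.559 units in W2, while none of these 4 gene sums passed (adjusted p = 0.321 to 0.632). How a level is shared among transcripts of one gene is an estimate of the assembly software, and an exact 0 may be a failed estimate.

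Among the 16 assembled DETs, MSTRG.10844.3 and MSTRG.10841.9 were the most abundant in EL. MSTRG.10844.3 was at 1278, 9431 and 7057 units in EL and at 31.8, 0 and 10.7 units in W2 (adjusted p = 0.0409), and like CSN1S2 it was lowest in EL_3. MSTRG.10841.9 was at 3360, 6023 and 4383 units in EL and 645, 624 and 836 units in W2 (log2 fold change -2.68, SE 0.30, adjusted p = 0.0046). MSTRG.10966.2 was listed at 0 in all EL samples and stood at 19.1, 18.0 and 21.1 units in W2 (adjusted p = 0.00288). These transcripts carry no gene name in the table and were not assigned to a gene here.

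Across the 5 stages of the series, the genes that fell and those that rose had different levels in gestation. Mid-gestation was sampled on gestation day 70 and late gestation (LG) on gestation day 110. For 10 of the 36 genes that fell, every W2 sample was below every counted sample of the other 4 stages (0.114% of all genes), and for 20 of them every EL sample was above every MG and LG sample (a pattern that, with EL also above W2, held for 0.549% of all genes). For 44 of the 117 that rose, every W2 sample was above all others (4.1% of all genes). The comparisons share the EL and W2 samples that chose these genes, so the counts are a description. XDH was at 122 to 436 units in MG, 270 to 743 units in LG and 768 to 1363 units in PL, so that its W2 samples overlapped those of MG, as did those of CSN1S2 and HP. PGLYRP1 was at 541 to 1605, 1375 to 3164 and 1830 to 7333 units, against 290 to 304 units in W2. HP was higher in PL than in EL, at 2179 to 5848 units, and was at 72.8 to 433 units in MG.

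CYP1A1 was at 0.161 to 0.296 units in MG, 0.133 to 0.396 units in LG and 0.510 to 2.02 units in PL. Every EL sample was above these, at 4.33 to 36.6 units. The means of CSN1S1, XDH and PGLYRP1 were also highest in EL, but their EL samples overlapped those of PL. AXIN2 and APCDD1L were low in both lactation stages, with AXIN2 at 0 to 0.523 units and APCDD1L at 0 in PL. In gestation AXIN2 stood at 3.38 to 8.72 units and APCDD1L at 2.74 to 17.4 units. TFAP2C was at 52.2 to 111 units in gestation and 10.1 to 27.9 units in PL. Of the 117 genes that rose, 83 had every EL sample below every MG and LG sample, a pattern with W2 also above EL in 10.8% of all genes.

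**Figure D5:**
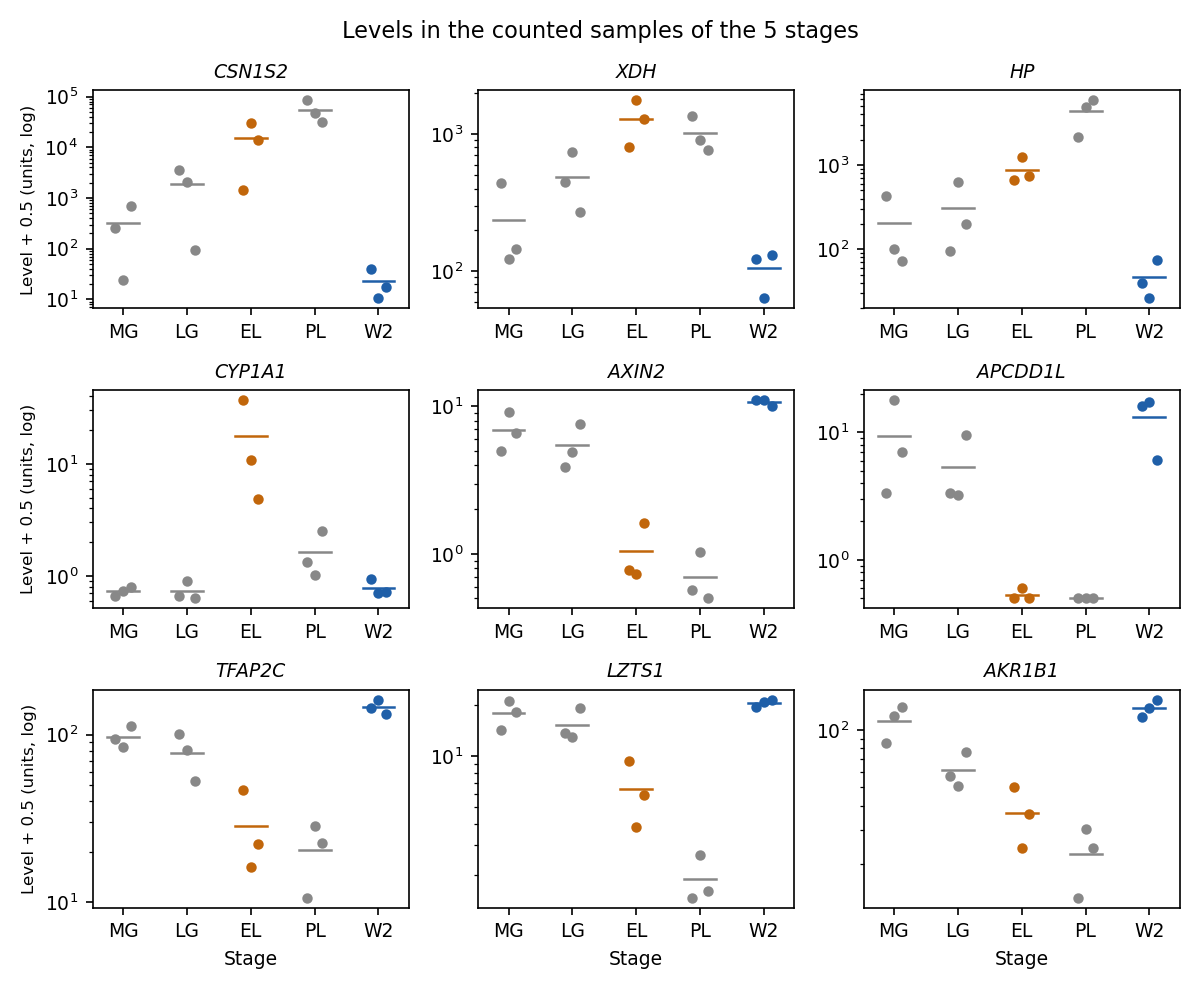
Level plus 0.5 of 9 genes in the counted samples of the 5 stages (points, n = 3 a stage) with the stage mean (line), in units on log axes, with EL in orange and W2 in blue. The W2 samples of CSN1S2, XDH and HP lie below those of LG, EL and PL and overlap those of MG, CYP1A1 is highest in EL, and AXIN2, APCDD1L and TFAP2C are low in EL and PL and high in gestation and W2.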

How the data were processed

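Bulk RNA of mammary parenchyma was sequenced by the authors on an Illumina HiSeq, trimmed, aligned with HISAT2 to Sscrofa11.1 and assembled with StringTie; the tools FastQC, Trimmomatic and HISAT2 are named in the submitters' processing notes. The deposited values are called FPKM but sum to 997480 to 1002643 in each sample, as TPM do, and were treated as TPM (units). Whether an RUVs correction is in them is not given in the sources used here. The main test was limma 3.58.1 in R 4.3.3 on log2(value + 0.5), with 3 counted samples in each of 5 stages in 1 fit and a variance trend, and with no filter on low values. Reference transcripts were summed to genes with the RefSeq gene table of Sscrofa11.1, which matched 32726 of 61773 transcripts. Named genes were the reference transcripts among DETs, the 12 largest rises and falls among genes with an adjusted p under 0.05 and no overlap, the called members of each list (up to 6, otherwise up to 4 of highest mean) and the milk protein and involution signalling lists. Members and lists were chosen with earlier results of these data known. Data were simulated with 100 genes changed by 2.5 and 100 by 4 on the log2 scale. Of these, 87 and 99 were called, with 6 false calls among 14937 genes. For 61773 transcripts the fit called 55 and 86, with 9 false calls. Calls in the simulation also needed a log2 fold change of 2 or more in either direction, a limit not set for the gene calls reported here. The number of false gene calls without that limit was not simulated. Noise was drawn independently for each value, and only features with a higher mean were changed. Alternatives changed the pseudocount, filter, scaling, trend, stages, samples and replicate block. Shares were compared by exact permutation tests in scipy 1.17.1. Some genes that meet the naming rule are not reported here.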

Additional observations from a re-analysis of the deposited data

How the results depend on the processing

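Calls depended on the fit, while directions did not: each of the 153 genes and 39 DETs kept its sign in every alternative that tested it. The count of 153 genes became 76 with a pseudocount of 0.1, 67 after quantile normalization, 48 after median ratio scaling, 2 with EL and W2 alone, 4 with both of the last choices (chosen after seeing the data), 3829 without the PL stage, 8075 with all 6 samples per stage and 5353 with the near-identical samples as 1 further sample. Leaving out 1 sample gave 1 to 3695 genes. The count of 39 DETs became 23 with EL and W2 alone, 26 with median ratio scaling as well, 117 without the PL stage, 3262 with all 6 samples and 1240 with the near-identical ones as 1 further sample. Leaving out 1 sample gave 68 to 108 DETs. The cause of these changes was not tested, but the samples left out of the main fit lie close to the mean of the others. Among the other alternatives the gene count was 136 to 222 and the DET count 29 to 45. Higher against lower gene calls were 117 to 36 as deposited, 21 to 27 after median ratio scaling and 29 to 38 after quantile normalization. With the replicate block, 2 genes and 4 DETs were called. The numbers name different sows and were for that reason not taken as pairs. Only 3 and 6 are shared, and their deviations correlated at 0.11 and -0.03, against -0.07 to 0.10 for samples of different number. So few samples cannot decide on a pairing. The milk protein share difference of -11.7 points became -14.4 with reference transcripts as the total and ran from -13.5 to -10.8 when 1 sample was left out. The mitochondrial share difference of 0.794 points ran from 0.714 to 0.887.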

Other observations

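Some genes higher in early involution that no list held are set out here as values, chosen after they were seen. ID2 and ID4, inhibitors of basic helix-loop-helix factors, rose together. ID2 was at 22.1, 10.6 and 13.9 units in EL and at 33.1, 43.4 and 39.6 units in W2 (log2 fold change 1.35, SE 0.28, adjusted p = 0.0475 by limma). ID4 was at 16.8, 17.8 and 14.6 units in EL and at 28.6, 42.1 and 54.2 units in W2 (log2 fold change 1.27, SE 0.24, adjusted p = 0.0337). GPT2, the mitochondrial alanine transaminase, was nearly constant in W2 at 76.8, 77.7 and 77.0 units, against 27.0, 12.5 and 20.1 units in EL (log2 fold change 2.00, SE 0.37, adjusted p = 0.0337). PPARGC1A, a coactivator of mitochondrial genes, was at 0.403 to 0.711 units in EL and 1.69 to 2.63 units in W2 (adjusted p = 0.0427). IL10, an inhibitory cytokine, was at 0.696 to 1.01 units in EL and 2.09 to 2.84 units in W2 (adjusted p = 0.0330). None of these 5 was called after median ratio scaling, where the adjusted p lay between 0.0581 and 0.0768.

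Among falls, CBS, the enzyme that turns homocysteine into cystathionine, was at 24.0, 23.4 and 22.0 units in EL and 10.1, 8.35 and 12.7 units in W2 (log2 fold change -1.14, SE 0.22, adjusted p = 0.0364, and 0.0524 after scaling).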
